A study of Mus musculus with 6 samples.

Results

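The open chromatin of mouse CD8+ T cells was examined at 39 genes of fatty acid uptake and metabolism, of which 12 act in uptake and binding, 8 in oxidation, 13 in synthesis and storage and 6 are regulators. A peak was taken for a gene where its summit lay inside the gene, or where that gene was the nearest protein-coding gene within 100 kb. Peaks of the 6 libraries that overlapped by at least 1 bp were merged, which gave 238 regions at these genes out of 134174 in all. The assay was ATAC-seq: a transposase cuts open DNA and tags it for sequencing. The T cells came from spleen, were purified by removal of other cells, were activated with antibodies to CD3ε at 5 µg/mL and to CD28 at 1 µg/mL, and then spent 48 h below the membrane of a transwell. The insert above held lung adenocarcinoma cells resistant to PD-1 blockade, either Res-ctrl (3 libraries) or Res-shFabp7, which carry a short hairpin RNA against Fabp7 (3 libraries). Since the hairpin acts in the tumour cells, chromatin of T cells cannot check it. Whether a Res line is 1 clone, the strain and age of the mice, and whether the 3 biological replicates of a group came from separate mice are points not given in the sources read here, so p-values measure the spread between these libraries. The comparison asked whether the T cells' chromatin at fatty acid genes differed between the co-cultures.

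Fatty acids enter cells with the help of CD36 and of the SLC27 transport proteins, and the small FABP proteins bind them in the cytosol. For oxidation, carnitine palmitoyltransferases carry long-chain acyl groups into mitochondria, where acyl-CoA dehydrogenases and the trifunctional protein encoded by Hadha and Hadhb shorten them to acetyl-CoA. Synthesis runs from citrate through ACLY, the acetyl-CoA carboxylases and FASN, and SCD enzymes add a double bond before storage as triglyceride. SREBP factors are known as activators of lipid synthesis and PPAR factors as lipid-sensing nuclear receptors. Activated T cells are known for high lipid synthesis, and memory CD8+ T cells for a larger use of oxidation.

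The promoter windows below, from 250 bases before to 50 bases after a gene start, are shown for genes on which the results turn. Acly, Srebf2, Acadm and Fasn had the highest promoter peaks of the 31 genes with a window, the windows of Cpt1a and Acadm lay in regions that ranked lower with Res-shFabp7 in the setting described further down, and Fabp7 and Cd36 had no peak there. RefSeq (GRCm38.p6, the primary assembly of mm10) gave windows for 31 of the 39 genes. Each is written 5′ to 3′ on the strand of its gene. Capitals mark, on either strand, the letters CCAAT known from NF-Y sites, GGGCGG known from Sp and KLF sites, CACGTG of the E-box, AGGTCA of nuclear receptor sites, GGAAGT known from ETS sites and TGACGT known from CRE sites.
Acly, chr11:100527951-100528250, minus strand: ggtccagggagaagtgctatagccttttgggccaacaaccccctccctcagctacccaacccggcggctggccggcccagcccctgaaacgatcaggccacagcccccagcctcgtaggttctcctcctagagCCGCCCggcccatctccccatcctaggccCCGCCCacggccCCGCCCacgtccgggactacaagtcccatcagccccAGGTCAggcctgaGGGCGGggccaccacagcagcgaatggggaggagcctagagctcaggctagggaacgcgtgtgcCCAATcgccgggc
Srebf2, chr15:82147019-82147318, plus strand: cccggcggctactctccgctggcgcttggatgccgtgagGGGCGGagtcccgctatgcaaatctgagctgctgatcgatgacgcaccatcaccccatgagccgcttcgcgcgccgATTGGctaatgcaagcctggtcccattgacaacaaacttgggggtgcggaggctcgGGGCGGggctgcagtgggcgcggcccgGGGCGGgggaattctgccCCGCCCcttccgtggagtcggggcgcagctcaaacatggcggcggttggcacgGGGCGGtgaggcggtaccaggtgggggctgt
Acadm, chr3:153944594-153944893, minus strand: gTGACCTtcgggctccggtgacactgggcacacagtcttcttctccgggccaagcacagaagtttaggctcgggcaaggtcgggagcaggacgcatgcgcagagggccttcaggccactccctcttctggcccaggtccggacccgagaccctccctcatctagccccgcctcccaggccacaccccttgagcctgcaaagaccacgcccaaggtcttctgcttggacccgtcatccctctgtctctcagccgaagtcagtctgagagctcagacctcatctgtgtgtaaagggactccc
Fasn, chr11:120824498-120824797, minus strand: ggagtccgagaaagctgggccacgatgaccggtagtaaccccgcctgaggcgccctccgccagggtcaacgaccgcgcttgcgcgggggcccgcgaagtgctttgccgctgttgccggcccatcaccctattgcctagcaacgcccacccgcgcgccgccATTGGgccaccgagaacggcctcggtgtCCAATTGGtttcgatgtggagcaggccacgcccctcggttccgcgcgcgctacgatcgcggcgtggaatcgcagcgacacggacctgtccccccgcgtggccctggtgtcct
Cpt1a, chr19:3323051-3323350, plus strand: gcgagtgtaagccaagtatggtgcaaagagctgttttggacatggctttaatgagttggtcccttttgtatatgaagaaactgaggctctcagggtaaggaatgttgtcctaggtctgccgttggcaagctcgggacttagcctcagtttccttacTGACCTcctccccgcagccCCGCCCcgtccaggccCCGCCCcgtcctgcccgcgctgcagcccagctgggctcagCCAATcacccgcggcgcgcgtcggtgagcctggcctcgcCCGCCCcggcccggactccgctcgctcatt
Fabp7, chr10:57784673-57784972, plus strand: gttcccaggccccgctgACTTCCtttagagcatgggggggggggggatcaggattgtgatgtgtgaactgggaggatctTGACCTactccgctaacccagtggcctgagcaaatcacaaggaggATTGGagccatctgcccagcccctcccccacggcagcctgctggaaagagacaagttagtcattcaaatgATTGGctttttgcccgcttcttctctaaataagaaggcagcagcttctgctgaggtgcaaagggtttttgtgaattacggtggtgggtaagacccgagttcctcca
Cd36, chr5:17835847-17836146, minus strand: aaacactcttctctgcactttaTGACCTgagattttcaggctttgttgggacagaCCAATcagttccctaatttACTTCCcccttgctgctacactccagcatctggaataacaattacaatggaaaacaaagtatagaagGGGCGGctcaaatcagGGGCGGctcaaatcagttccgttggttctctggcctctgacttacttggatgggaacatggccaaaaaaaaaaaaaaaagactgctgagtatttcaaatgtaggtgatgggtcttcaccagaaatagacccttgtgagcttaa

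AGGTCA, the core of sites bound by nuclear receptors such as the PPARs, was in the windows of Acly, Acadm, Cpt1a, Cd36 and Fabp7 shown above. Over all 39 windows of these genes (some have several starts) AGGTCA was in 11 (28.2%), against 14.7% of 21262 windows of all genes. GGGCGG was in 22 (56.4%), against 46.2%, and CCAAT in 18 (46.2%), against 38.2%. GGAAGT was in 6 (15.4%), against 24.8%. CACGTG was in 2 (5.13%), against 7.84%, and TGACGT in 3 (7.69%), against 8.49%. Both strands were searched, and a match is a description of the letters and not a site.

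The 6 peak lists held 82153 to 105796 peaks, and those of the Res-shFabp7 libraries were the 3 longest. Read from the most frequent background pileup of a list, a relative measure of depth, the Res-shFabp7 libraries stood at 1.026, 0.868 and 0.959 and the Res-ctrl libraries at 0.709, 0.608 and 1.006. Weak peaks are lost where depth is low, and a region without a call may still be open. All 12 T cell marker genes had peaks, 219 to 259 per library. In these bulk libraries more cells with an open region and more opening per cell cannot be told apart.

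Accessible chromatin was found at 36 of the 39 genes, and 32 had a region called in all 6 libraries. Over all 21883 protein-coding genes, 16421 had a region and 14287 had 1 in all 6 libraries. Of the 238 regions, 107 (45.0%) were called in all 6 libraries, against 42.2% of all regions, and 47 (19.7%) in 1 library, against 23.3%. No peak was assigned to Fabp7, the brain-type fatty acid binding protein and the gene targeted in the tumour cells, to Fabp1, the liver type, or to Fabp9, the testis type. Of the regions, 146 (61.3%) had their place inside a gene of the list and 28 overlapped a promoter window. Hadha and Hadhb are read in opposite directions from neighbouring starts, and 1 region covered both.

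**Figure D1:**
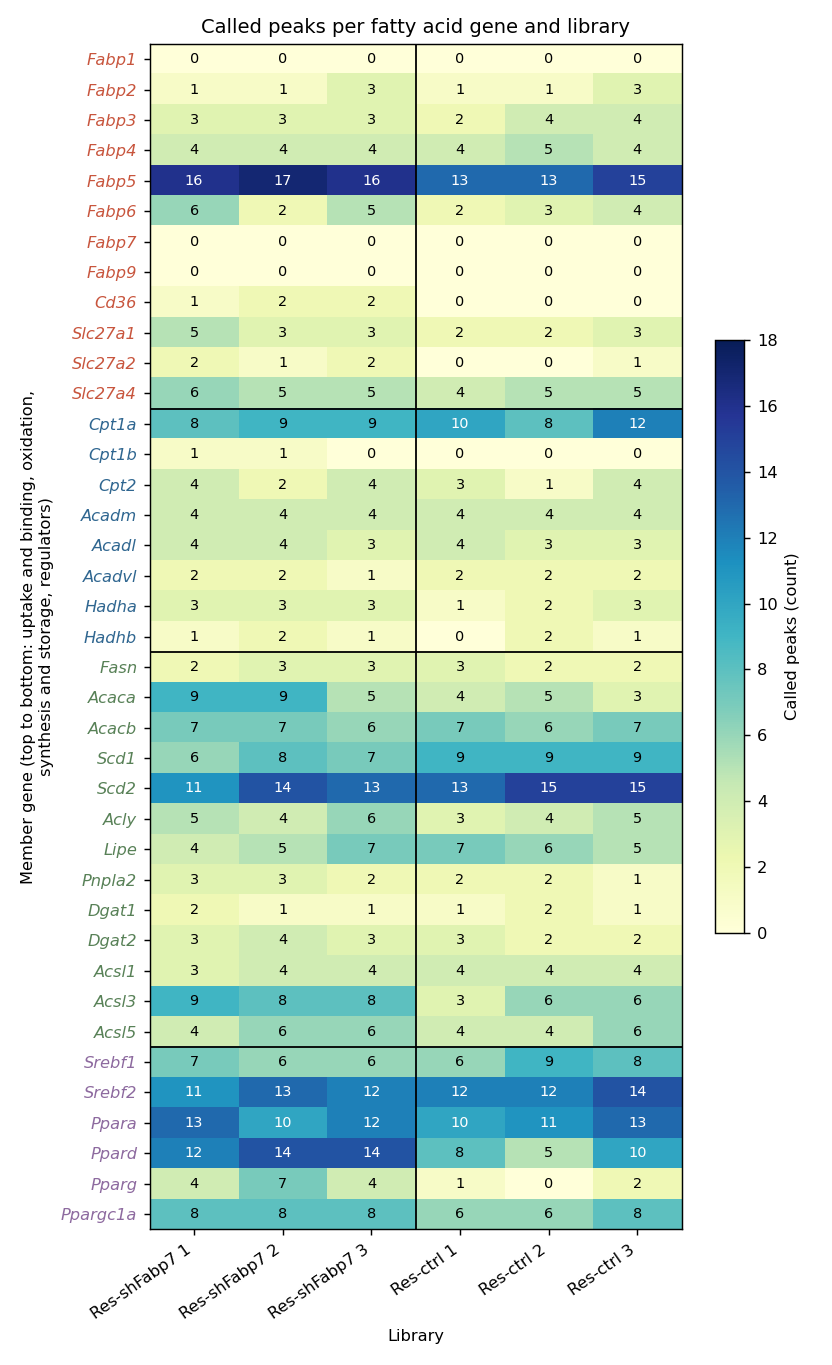
Number of called peaks assigned to each of the 39 genes (rows, ordered by role) in each of the 6 libraries (columns); the number is printed in each cell and the colour follows it. Fabp5 and Scd2 have the highest counts, and Fabp1, Fabp7 and Fabp9 have 0 in every library.

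The libraries gave these genes about the same part of their peaks in both groups. The Res-shFabp7 lists held 194, 199 and 195 peaks at the 39 genes and the Res-ctrl lists 158, 165 and 189. The counts did not overlap between groups, nor did the lengths of the lists. Per 1000 peaks of a list, the values were 1.855, 1.881 and 1.945 with Res-shFabp7 and 1.862, 2.008 and 1.962 with Res-ctrl. The means were 1.894 ± 0.0464 and 1.944 ± 0.0748 (SD, n = 3 each), and the difference of -0.0506 was within the spread of the libraries (two-sided exact permutation p = 0.4, where 3 against 3 libraries cannot go below 0.1). With the lists shortened to the same 82153 strongest peaks the difference was 0.00406.

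By role, the oxidation genes were the ones whose shares did not overlap between groups. They had 27, 27 and 25 peaks with Res-shFabp7 and 24, 22 and 29 with Res-ctrl. Per 1000 peaks this was 0.258, 0.255 and 0.249 against 0.283, 0.268 and 0.301, so that each Res-ctrl library was above each Res-shFabp7 library (difference -0.0297, exact permutation p = 0.1, the smallest possible, and 0.4 with Benjamini-Hochberg adjustment over the 4 roles). With lists of equal length the difference was 0. For uptake and binding the difference was 0.0241 (exact permutation p = 0.5, adjusted 0.667), for synthesis and storage -0.0555 (p = 0.3, adjusted 0.6) and for regulators 0.0105 (p = 0.7, adjusted 0.7).

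Promoter windows of the oxidation, synthesis and regulator genes were mostly open, and those of the uptake genes mostly were not called. A peak overlapped the promoter window in all 6 libraries for 20 of the 31 genes with a window (64.5%), against 50.5% of 17491 genes. By role this was 7 of 7 for oxidation, 7 of 9 for synthesis and storage, 4 of 6 for regulators and 2 of 9 for uptake and binding. Within 1 kb of either end of the gene, a measure that all 39 genes have, 28 (71.8%) had a peak in all 6 libraries, against 51.8% of all genes. The uptake genes among these 28 were Fabp3, Fabp4, Fabp5, Slc27a1 and Slc27a4. Fabp4, Fabp5 and Fabp9 had no promoter window.

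The highest peaks over promoter windows were those of Acly, Srebf2, Acadm and Fasn. Height is given as the pileup, the authors' coverage at the summit, and as its percentile among all peaks of the same library, where 100 is the highest peak. Acly, which makes cytosolic acetyl-CoA, had pileups of 328, 320 and 367 with Res-shFabp7 and 306, 237 and 417 with Res-ctrl, at percentiles of 98.6 to 99.3. Srebf2, which encodes the SREBP of cholesterol synthesis, had 297, 299 and 313 against 251, 195 and 315. Acadm, the medium-chain acyl-CoA dehydrogenase, had 275, 237 and 291 against 276, 219 and 370. Fasn, fatty acid synthase, had 208, 228 and 199 against 200, 168 and 264. In each of these genes Res-ctrl 3 had the highest pileup and Res-ctrl 2 the lowest, and the pileups overlapped between groups. The percentiles did not overlap in Srebf2, with 98.4, 98.7 and 98.5 against 98.2, 97.5 and 98.1, or in Acadm, with 98.0, 97.5 and 98.2 against 98.7, 98.2 and 98.8. These percentiles depend on the length of a list. Ranked only among regions called in all 6 libraries, as described further down, the Srebf2 promoter overlapped between groups (difference 0.07, limma adjusted p = 0.700). The Acadm promoter did not overlap in that ranking. Among all promoter regions there, groups did not overlap in 6.47% as higher and 14.3% as lower with Res-shFabp7. Dgat1, a triglyceride-forming enzyme with no window in the table, had a region at its end of the same rank, on chromosome 15 from 76511603 to 76512473, with 366, 314 and 404 against 287, 251 and 409.

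**Figure D2:**
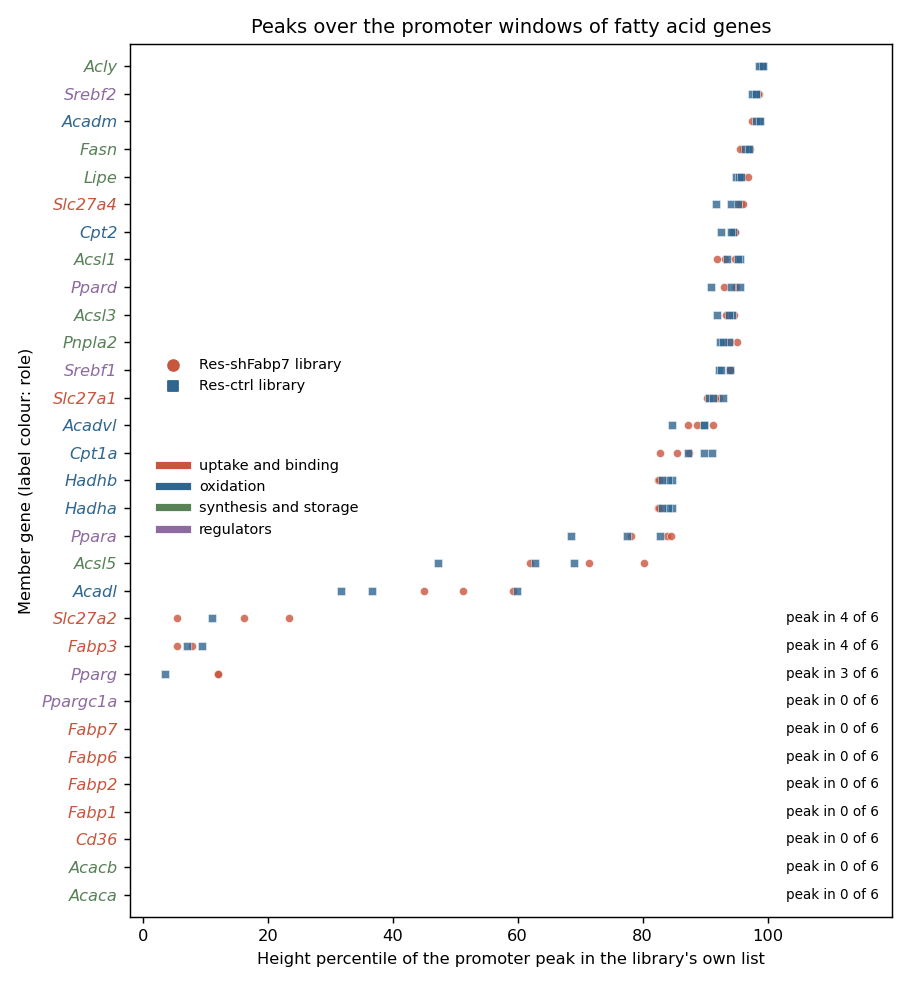
Height percentile of the promoter peak in each library's own list (x axis; 100 is the highest peak) for the 31 genes with a promoter window (y axis, label colour by role), with circles for Res-shFabp7 and squares for Res-ctrl libraries. Acly lies at 98.6 to 99.3, while 8 genes, listed at the bottom, have no promoter peak in any library.

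No peak was called at the listed start of 8 genes, namely Fabp1, Fabp2, Fabp6, Fabp7, Cd36, Acaca, Acacb and Ppargc1a. For Acaca, which makes malonyl-CoA in the cytosol, this concerns 1 start. A region of high rank (percentiles of 96.1 to 97.8) lay inside the gene at -15942 bp from that start, on chromosome 11 from 84179173 to 84180472, with pileups of 217, 197 and 228 with Res-shFabp7 and 184, 178 and 295 with Res-ctrl. Another Acaca region in all 6 libraries, from 84129147 to 84129947, lay at the upstream end of the gene body, -65738 bp from that start. It had pileups of 73, 48 and 56 against 46, 39 and 64. The related Acacb, whose product makes malonyl-CoA at mitochondria, had its highest region 10243 bp after the listed start, with 130, 145 and 136 against 122, 99 and 164. Ppargc1a, a coactivator of mitochondrial genes, had 3 regions in all 6 libraries, at -548239, -558268 and -564509 bp from the listed start. That at -548239 bp, at the upstream end of the gene body, had 29, 29 and 28 against 23, 17 and 26. The regions named here at these 3 genes were thus away from the start listed for them.

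**Figure D3:**
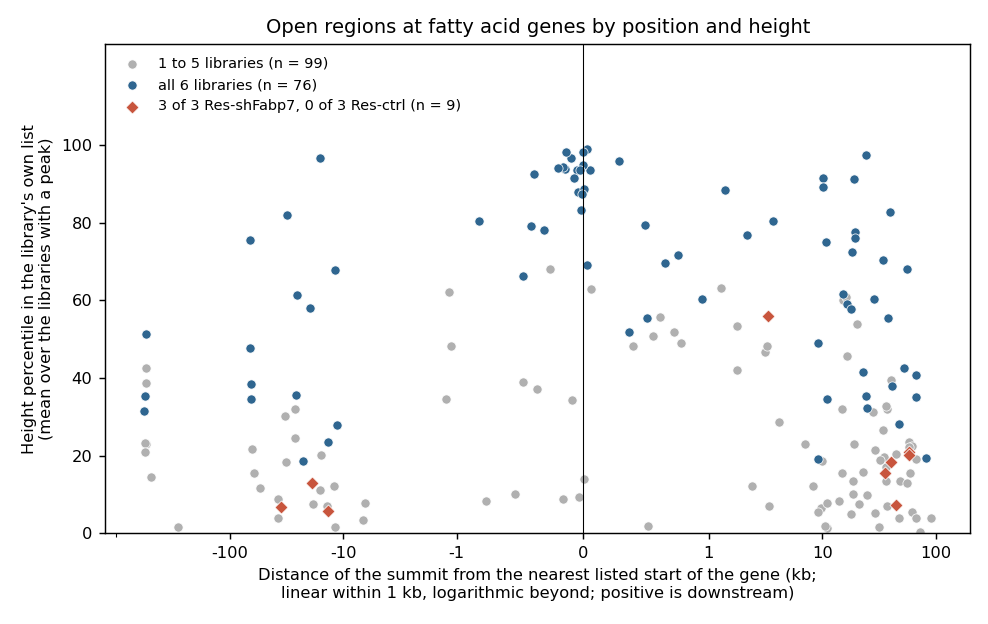
Regions at genes with a listed start, placed by the distance of the summit from that start in kb (x axis, linear within 1 kb and logarithmic beyond, positive is downstream) and by the mean height percentile over the libraries with a peak (y axis). Regions called in all 6 libraries (blue) crowd near the start at high percentiles, and 8 of the 9 drawn regions called in 3 of 3 Res-shFabp7 and 0 of 3 Res-ctrl libraries (red) lie under a percentile of 40.

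Called regions that separated the groups completely were few and lay on 1 side. A region called in 3 of 3 Res-shFabp7 and 0 of 3 Res-ctrl libraries was found 10 times among the 238 (4.20%), against 2.28% of all regions. The reverse, 3 of 3 Res-ctrl and 0 of 3 Res-shFabp7, was found 0 times, against 0.155% of all. The 10 regions were weak: their lowest −log10 q over the 3 libraries had a median of 4.59, against 4.22 for all 3065 regions of this kind, and list medians of 12.2 to 14.8. Against Res-ctrl 3 alone, 14 regions (6.06%) were called in all 3 Res-shFabp7 libraries and not in it, and 12 (5.19%) in it and in none of the 3, where all regions gave 4.27% and 4.52% (an alternative chosen after seeing the data). Without Res-ctrl 3 the 10 became 19 (8.26%), against 5.34% of all regions. With lists of equal length, merged anew, 2 of 202 regions separated the groups toward Res-shFabp7, at Acadl and Cpt2, and 1 toward Res-ctrl, at Srebf1, against 1.13% and 0.527% of all.

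**Figure D4:**
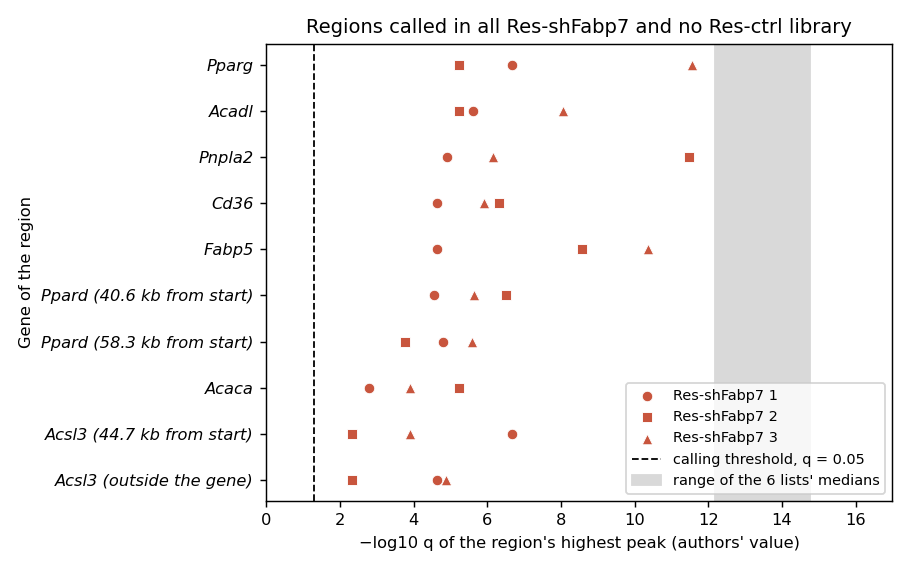
Significance of the 10 regions called in all 3 Res-shFabp7 libraries and in no Res-ctrl library, as the authors' −log10 q of the region's highest peak (x axis), 1 row per region and 1 symbol per library. The dashed line is the calling threshold (q = 0.05) and the grey band spans the medians of the 6 lists (12.2 to 14.8), and all points lie below that band.

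Among uptake genes, Cd36 and Fabp5 had such a region. Cd36, the fatty acid translocase, had no peak in any Res-ctrl library and 1, 2 and 2 peaks with Res-shFabp7. Its region on chromosome 5 from 17854520 to 17854778, inside the gene at -18800 bp from the listed start, had pileups of 9, 10 and 10, near the bottom of the lists (percentiles of 7.79 to 19.1). A further Cd36 region was called in Res-shFabp7 2 and 3 with a pileup of 10 in each. Fabp5, the epidermal type that T cells are known to use, had the most peaks of the uptake genes, 16, 17 and 16 against 13, 13 and 15, with 9 regions in all 6 libraries. Of its 19 regions 1 lay inside the gene. The others were counted because Fabp5 was the nearest gene within 100 kb, as for 1 region 87724 bp away. Its region only with Res-shFabp7 lay 7153 bp outside the gene on chromosome 3 from 10023712 to 10023850, with pileups of 9, 12 and 14. The main Fabp5 region, over its own gene body from 10012228 to 10013379, had 165, 197 and 181 against 139, 139 and 247, and the groups overlapped.

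The other uptake genes showed open transporters and a few sparse FABP loci. Slc27a4, a fatty acid transport protein with acyl-CoA synthetase activity, had 6, 5 and 5 peaks against 4, 5 and 5, and its promoter had pileups of 199, 197 and 194 against 151, 112 and 216. Slc27a1, another member of that family, had 5, 3 and 3 peaks against 2, 2 and 3. Its highest promoter peak stood at 143, 128 and 124 against 114, 108 and 172. Both were open in all 6 libraries. Slc27a2, a very-long-chain acyl-CoA synthetase, had 2, 1 and 2 peaks against 0, 0 and 1, all at its start, with pileups of 11, 7 and 13 with Res-shFabp7 and 10 in Res-ctrl 3. Fabp3, the heart type, had 3, 3 and 3 peaks against 2, 4 and 4, and Fabp6 6, 2 and 5 against 2, 3 and 4. Fabp2, the intestinal type, had 1, 1 and 3 against 1, 1 and 3.

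Fabp4, the adipocyte type, had the highest rank differences of the 39 genes. For the 56610 regions called in all 6 libraries, heights were ranked within each library and turned into normal scores, which depend on neither list length nor depth scale. The region from 10213046 to 10213526 on chromosome 3, 4609 bp outside Fabp4, had pileups of 58, 66 and 44 with Res-shFabp7 and 16, 10 and 28 with Res-ctrl. Each Res-shFabp7 library was above each Res-ctrl library. The mean score was 0.222 ± 0.223 against -0.852 ± 0.380 (SD, n = 3 each), a difference of 1.07 (SE 0.21). The limma p was 0.00203 and the adjusted p over all regions 0.145. The neighbouring region from 10211933 to 10212220 had 24, 20 and 22 against 7, 6 and 15, again without overlap, a difference of 1.18 (SE 0.26, limma adjusted p = 0.162). Neither passed the threshold of 0.05. The third Fabp4 region, over the gene, had 46, 45 and 34 against 17, 19 and 39 and overlapped between groups. Of Fabp4's neighbours in the same cluster of FABP genes, Fabp9 had no peak.

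In the whole comparison of ranks, 0 of the 107 regions at the 39 genes passed, and of all 56610 regions 1 (0.00177%) passed as higher and 0 (0%) as lower with Res-shFabp7. At an unadjusted p under 0.05 limma gave 5 higher and 10 lower among the 107, against 8.27% and 7.4% of all. The groups did not overlap in 5 regions higher with Res-shFabp7 (4.67%, all regions 11.6%) and in 17 lower (15.9%, all regions 11.2%). A limma fit in which the assumed spread follows the height of a region, chosen after seeing the data, passed 1538 regions as higher (2.72%) and 674 as lower (1.19%). In that fit 2 of the 107 passed as higher, both at Fabp4 (adjusted p = 0.000527 for the region from 10213046 and 0.0436 for the neighbour). As lower it passed 4, which lay at Scd2, Cpt1a, Acadm and Scd1. The Fabp4 region from 10213046 passed in 9 of 10 fits whose spread follows height, and its neighbour in 3 of 10. These 10 include the fit just given. The region from 10213046 did not pass in the fit on the fold over background (adjusted p = 0.140).

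**Figure D5:**
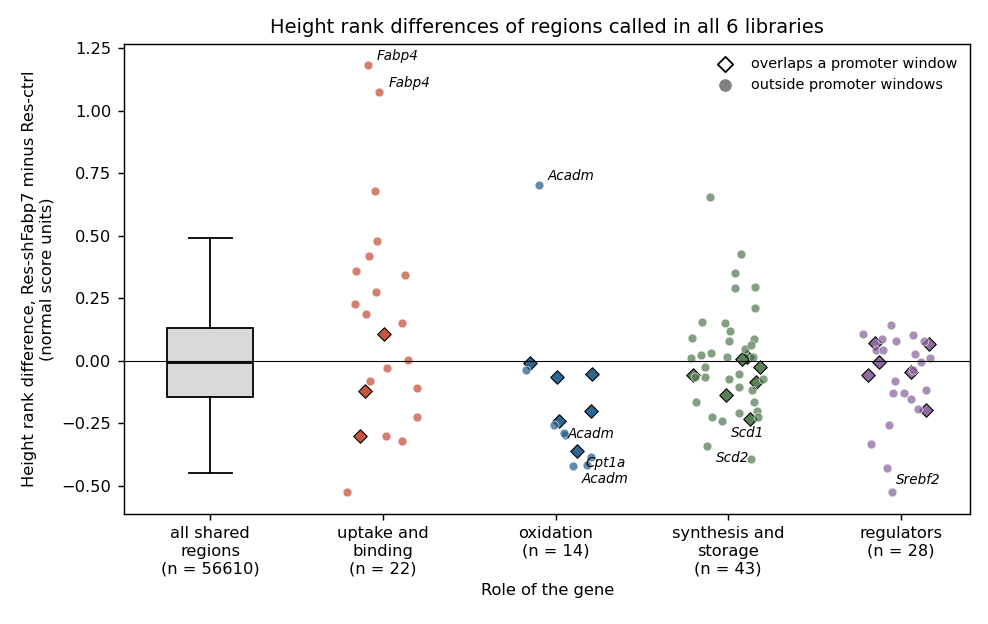
Difference in height rank between the groups (y axis, normal score units, Res-shFabp7 minus Res-ctrl) for regions called in all 6 libraries, as 1 point per region and grouped by role, with diamonds for regions over a promoter window. The box spans the quartiles of all 56610 regions with its line at the median and whiskers at the 5th and 95th percentiles; the Fabp4 regions lie at 1.07 and 1.18 and 13 of 14 oxidation regions below 0.

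Markers of other cells are given beside the Fabp4, Cd36 and Pparg results, since these genes are also known from myeloid and other cells. The 9 myeloid genes all had peaks, in sum 30, 39 and 34 with Res-shFabp7 and 26, 25 and 29 with Res-ctrl. The 7 B cell genes had 28, 23 and 25 against 17, 15 and 20, with none at Ms4a1. The 8 epithelial tumour genes had 19, 20 and 18 against 14, 14 and 13, with none at Krt8, Krt19 and Sftpc. The 6 NK cell genes had 49, 45 and 47 against 45, 37 and 43, and the 6 genes of CD4+ and regulatory T cells 117, 116 and 106 against 94, 97 and 113. The sums of the myeloid, B cell and epithelial genes were higher in every Res-shFabp7 library, as were the lengths of the lists, those of the NK cell genes touched and those of the CD4+ and regulatory T cell genes overlapped. In the height ranks, which do not depend on list length, groups did not overlap in 3 B cell regions of 10 as higher with Res-shFabp7 and in 0 as lower (median difference 0.15). This was 2 and 2 of 16 for myeloid genes (median 0.02), 1 and 6 of 29 for NK cell genes (-0.04), 0 and 0 of 11 for epithelial genes (-0.13) and 7 and 9 of 71 for CD4+ and regulatory T cell genes (-0.01). For the 12 T cell genes it was 24 and 15 of 169 (-0.007), and over all shared regions 11.6% and 11.2%. Regions called in all 3 Res-shFabp7 and no Res-ctrl library were 2 of 37 for B cell genes (5.41%). They were 3 of 47 for myeloid (6.38%) and 2 of 21 for epithelial genes (9.52%). For NK cell genes they were 1 of 60 (1.67%), for CD4+ and regulatory T cell genes 2 of 142 (1.41%). For T cell genes they were 2 of 319 (0.627%), against 2.28% of all regions. The part of other cells in the results was not tested.

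Rank differences at the oxidation genes were mostly negative. Of their 14 regions called in all 6 libraries, 13 had a negative difference, with a median of -0.25, against 52.2% negative and a median of -0.01 over all. Cpt1a held 5 of the 14 and Acadm 4, so the regions are not separate genes. Several lay over promoter windows, where 61.3% of the regions of all genes were negative. Some differences were near 0, such as -0.010 at Cpt2 and -0.036 at a Cpt1a region. Cpt1a, the carnitine palmitoyltransferase that gates entry into mitochondria, had 8, 9 and 9 peaks against 10, 8 and 12. The region over its promoter window, on chromosome 19 from 3323183 to 3323609, had pileups of 89, 70 and 102 with Res-shFabp7 and 118, 98 and 113 with Res-ctrl. Its scores of 0.637, 0.489 and 0.779 lay below those of 1.123, 1.065 and 0.796, with Res-shFabp7 3 and Res-ctrl 3 close to each other. The difference was -0.36 (SE 0.13, limma adjusted p = 0.258), and 0.0117 in the fit whose spread follows height.

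Acadm had 4 regions, all called in every library, with differences of both signs. The region over its promoter, on chromosome 3 from 153943939 to 153944896, had scores of 1.798, 1.683 and 1.852 against 2.057, 1.943 and 2.061 (difference -0.24, limma adjusted p = 0.263, and 0.0302 with the spread following height). A region 644 bp outside the gene, from 153921533 to 153921839, had pileups of 19, 18 and 20 against 16, 20 and 23 (difference -0.42, adjusted p = 0.219). A region at -13476 bp from the start, from 153957978 to 153958353, was ranked higher in each Res-shFabp7 library, with 16, 16 and 20 against 8, 8 and 10 (difference 0.70, SE 0.16, adjusted p = 0.166). None of the Acadm differences passed in the limma fit fixed for the comparison.

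The remaining oxidation genes had few regions. Acadl, the long-chain acyl-CoA dehydrogenase, had 1 of the 10 regions, on chromosome 1 from 66827358 to 66827737, 3203 bp outside the gene, with pileups of 10, 9 and 12. It was the 1 of the 10 that remained specific when the lists were shortened to equal length, as 706 of 3065 did among all. Its promoter had 26, 29 and 22 against 16, 14 and 36. Cpt2, the inner-membrane partner of Cpt1a, had a promoter with 180, 171 and 176 against 133, 140 and 193. Its region from 107939197 to 107939381 on chromosome 4, with 12, 11 and 17 against 8 in Res-ctrl 3, became specific to Res-shFabp7 with lists of equal length. The promoter shared by Hadha and Hadhb had 77, 69 and 76 against 78, 70 and 88. Acadvl, the very-long-chain dehydrogenase, had 110, 124 and 100 against 107, 72 and 136. Cpt1b, the muscle form, had 1 peak each in Res-shFabp7 1 and 2 and none elsewhere.

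Promoter regions as a class had mostly negative differences too. Of the 22 regions over promoter windows of the 39 genes, 17 had a negative difference (77.3%), against 61.3% of 8881 promoter regions of all genes. The groups did not overlap in 0 as higher and 7 as lower with Res-shFabp7 (31.8%), against 6.47% and 14.3%. The 7 lay at Cpt1a, Acadm, Hadha with Hadhb, Slc27a1 (2 regions), Srebf1 and Acsl1. None passed in the limma fit (lowest adjusted p = 0.258).

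Among the genes of synthesis and storage, 4 regions were called only with Res-shFabp7. Acsl3, an acyl-CoA synthetase of lipid droplets, had 9, 8 and 8 peaks against 3, 6 and 6. It held 2 such regions on chromosome 1, from 78644116 to 78644301 outside the gene (pileups of 9, 6 and 9, as near to Utp14b) and from 78702482 to 78702627 inside it (11, 6 and 8). Pnpla2, adipose triglyceride lipase, held the highest of the 10 regions, inside the gene on chromosome 7 from 141458459 to 141458599, with pileups of 26, 35 and 26. Its fold over the local background was 3.05, 4.45 and 3.47, the lowest of the 10 in Res-shFabp7 1 and 3. Acaca had a region inside the gene, which is also inside Gm11437, on chromosome 11 from 84159914 to 84160371, with 7, 9 and 8. The Acaca gene as a whole had 9, 9 and 5 peaks against 4, 5 and 3, and Fasn 2, 3 and 3 against 3, 2 and 2, so that the groups touched or overlapped.

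The stearoyl-CoA desaturase genes Scd1 and Scd2, which make monounsaturated fatty acids, had 16 regions called in all 6 libraries, of which 8 had a positive and 8 a negative rank difference. The groups did not overlap in 5 of the 16, all lower with Res-shFabp7. Over all regions called in 6 libraries this was 11.2% as lower and 11.6% as higher. Scd1 was the 1 of 39 genes with fewer peaks in every Res-shFabp7 library, 6, 8 and 7 against 9, 9 and 9, where 0.402% of all genes had that pattern. Of the 10 Scd1 regions 1 lay inside the gene, and the others were counted because Scd1 was the nearest gene. Its region from 44388351 to 44389285 on chromosome 19, 5254 bp outside the gene, had pileups of 174, 152 and 173 against 158, 150 and 242 and a rank difference of -0.24 (limma adjusted p = 0.243, and 0.0322 with the spread following height). Scd2, with 10 regions in all 6 libraries the most of any of the 39, had 11, 14 and 13 peaks against 13, 15 and 15. Its region from 44293565 to 44294126, at the edge of the gene body, had 106, 102 and 87 against 96, 105 and 178. The scores were 0.794, 0.814 and 0.641 against 0.941, 1.126 and 1.209, without overlap (difference -0.34, SE 0.10, limma adjusted p = 0.220, and 0.00910 with the spread following height).

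Of the regulators, Srebf1, Srebf2, Ppara and Ppard had a peak over a promoter window in all 6 libraries, and Pparg and Ppargc1a did not. Ppargc1a had the region at the upstream end of its gene body, away from its listed start. Srebf1, which encodes the SREBP of fatty acid synthesis, had 7, 6 and 6 peaks against 6, 9 and 8, and its highest promoter stood at 167, 157 and 171 against 129, 119 and 189. Srebf2 had 11, 13 and 12 peaks against 12, 12 and 14. A region inside it, on chromosome 15 from 82163776 to 82163957, had scores of -0.384, -0.415 and -0.668 against -0.058, 0.058 and -0.181, without overlap (difference -0.43, SE 0.11, limma adjusted p = 0.194). Ppara, the PPAR of hepatic fatty acid oxidation, had 13, 10 and 12 peaks against 10, 11 and 13. Of its 12 regions 2 lay inside the gene, and the others were counted because Ppara was the nearest gene. Its promoter had 81, 78 and 61 against 54, 37 and 87. Ppargc1a had 8, 8 and 8 peaks against 6, 6 and 8. The pileups of the Ppargc1a region at -548239 bp did not overlap between groups (29, 29 and 28 against 23, 17 and 26). The rank scores of that region overlapped (difference 0.009, limma adjusted p = 0.978). Apart from the Srebf2 and Ppargc1a regions just named, the groups overlapped or touched in the counts and pileups given for Srebf1, Srebf2, Ppara and Ppargc1a.

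Ppard and Pparg were the regulators with more peaks in every Res-shFabp7 library. Ppard, the PPAR expressed in most tissues, had 12, 14 and 14 peaks against 8, 5 and 10. It held 2 regions only with Res-shFabp7, both inside the gene on chromosome 17, from 28273287 to 28273426 (pileups of 11, 11 and 11) and from 28290888 to 28291065 (12, 10 and 13). Its promoter, by contrast, had 153, 169 and 187 against 173, 106 and 192. Pparg, the PPAR of fat cells, had 4, 7 and 4 peaks against 1, 0 and 2, with no region in all 6 libraries. The Pparg region among the 10, on chromosome 6 from 115480037 to 115480273, had 11, 9 and 15. A neighbour from 115480372 to 115480640 had 18, 15 and 11 against 6 in Res-ctrl 1 and 13 in Res-ctrl 3. Peaks per gene were thus higher without overlap at Fabp5, Cd36, Acsl3, Ppard and Pparg, 5 of 39, where 8.45% of all genes had that pattern.

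At 63 further genes of fatty acid handling, 492 regions included 14 in 3 of 3 Res-shFabp7 and 0 of 3 Res-ctrl libraries (2.85%) and 0 of the reverse, against 2.28% and 0.155% of all regions. The share was thus near that of all regions. Rxra, the partner receptor of the PPARs, held 3 of the 14, and 2 of these 3 were called in all Res-shFabp7 and no Res-ctrl library in lists of equal length too. Vldlr, a lipoprotein receptor, and Lpin2, a phosphatidate phosphatase, held 1 each that did so. The remaining 9 lay at Slc27a3, Hadh, Eci2, Acaa2, Elovl7, Acsl4, Acsl6, Mgll and Hmgcs1, and none of these did. Of the 63 genes 62 had a region, the exception being Lpl, lipoprotein lipase, and 58 had 1 in all 6 libraries. Over all 21883 genes these counts were 16421 and 14287.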

How the data were processed

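Open chromatin was measured in 6 ATAC-seq libraries of activated CD8+ T cells, 3 per group, with paired reads of 76 bases and 35 to 75 M read pairs per library per the labels' protocols. MACS2 2.2.7.1, Bowtie 1.1.2, Trim Galore 0.6.5 and cutadapt 2.8 are named with the build mm10, per the submitters' processing notes. How duplicates and the transposase offset were treated is not given in the sources read here. Each library has its own list of peaks deposited by the authors, called at a q of 0.05, with p-values and q-values as −log10, the pileup, which is a coverage signal at the summit, and a fold, the ratio of the summit to local background. Depth per library is known only in relative terms, from the background implied by the pileup and the fold.

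From these lists, peaks were merged into regions and assigned by summit to the nearest of 21883 protein-coding RefSeq genes within 100 kb, and a summit inside several genes counted for each. The table gives no exons. Height ranks were fitted with limma 3.58.1 in R 4.3.3 with Benjamini-Hochberg adjustment over all 56610 regions, and other steps used Python 3.11.15. Library shares were tested by exact permutation of the groups, two-sided. The text names each gene with a region called only with 1 group, in each role the 3 genes with the most regions in all 6 libraries and those with no peak, the 3 regions per direction with the smallest p where fewer than 3 passed, and 15 genes set whatever their values. The Fabp2, Fabp3, Fabp6, Dgat1 and remaining oxidation values, and the regions that passed only with the spread following height, were added after their values were seen. The members and lists were chosen with earlier results of these data known. Alternatives were a stricter q, equal list lengths, other gene distances and merging, other height measures, each library left out and a replicate block.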

Additional observations from a re-analysis of the deposited data

How the results depend on the processing

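The share of peaks at all 39 genes turned from -0.0506 to 0.00406 per 1000 peaks with lists of equal length, and that of the oxidation genes to 0. Without Res-ctrl 1 the uptake difference turned to -0.000353 and the regulator difference to -0.00297. Without each library in turn the differences were -0.0916 to -0.0185 for all 39 genes, -0.000353 to 0.0460 for uptake and -0.00297 to 0.0292 for regulators. For synthesis and storage they were -0.0868 (without Res-ctrl 3) to -0.0216 (without Res-ctrl 2) and also -0.0345 without Res-shFabp7 1, and for oxidation -0.0377 to -0.0211. With lists of equal length synthesis and storage gave -0.0203. Regions called only with Res-shFabp7 numbered 10 and those called only with Res-ctrl 0. They numbered 2 and 1 with lists of equal length (all regions 1.13% and 0.527%), and 18 (7.56%) and 3 (1.26%) where 2 of 3 libraries sufficed (all regions 7.28% and 1.104%). Without each library they numbered 11 to 19, the 19 without Res-ctrl 3 and the other 5 settings at most 14, and 0 to 2, the 2 without Res-ctrl 2 (all regions 2.93% to 5.34% and 0.320% to 0.571%). With Res-ctrl 3 as the only control they numbered 14 and 12 (all regions 4.27% and 4.52%). The causes were not tested. A required cover of 50% and merging across 200 bp gave 10 and 8 only with Res-shFabp7.

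In the height ranks, limma passed 0 regions at these genes in both directions under every setting with 1 assumed spread. With the spread following height, chosen after seeing the data, 2 passed as higher and 4 as lower (1538 and 674 of all 56610 regions), 2 and 5 with the replicate block as well (1832 and 846), 1 and 1 on −log10 q (569 and 228), 0 and 0 on fold (0 and 0), and 1 to 2 and 1 to 3 without each library (270 to 2102 and 174 to 727, lowest without Res-shFabp7 1 and highest without Res-ctrl 3). Under those 10 fits the Scd2 region passed in 8, the Cpt1a promoter in 4 and the Acadm promoter and Scd1 region in 3 each; the causes were not tested. Counting members with a peak within 1 kb of either end gave 28 in place of the 20 with a promoter peak.

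Same-numbered libraries did not deviate together (correlations of -0.0245, 0.0150 and -0.0158), so the numbers were not taken as pairs. With the replicate block, 0 regions passed in either direction in the fit with 1 assumed spread, and the sign-flip p for the difference of -0.0506 over all 39 genes was 0.25, the smallest that 3 pairs allow. The regions called only with 1 group had pileups mostly under 20, and the part of depth in them was not tested.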
